A study of Mus musculus with 6 samples.

Results

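The genes described here code for the machinery that cuts proteins into peptides and loads the peptides onto MHC class I molecules. They are Tap1, Tap2, Tapbp, Psmb8, Psmb9, Psmb10, Psme1, Psme2 and Erap1, 9 genes chosen by name from the 23791 genes of the deposited count table, and all 9 had enough reads to be tested. They were followed across 6 RNA sequencing libraries of RM1, a mouse prostate cancer cell line of the C57BL/6 strain. The bone library (1) and the lung library (1) are of RM1536 cells taken from the femur and the lung of the same mouse, 16 days after cells stained with the dye PKH26 were injected into the heart. Only cells negative for the dye, which dividing cells dilute, were kept. RM1536 (2 libraries, a and b) is the injected line in culture, that is RM1 that carries eCFP, a fluorescent protein, and luc2, a luciferase, pooled from clones 5, 3 and 6. RM1 (2 libraries, a and b) is the unlabelled line in culture. All cells were sorted by FACS and grown in DMEM with 5% FBS to 85% confluency, so what was sequenced from bone and from lung had been through culture again after recovery, from 1 animal and with no replicate.

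Proteins in the cytosol are degraded by the proteasome, a barrel of protein rings with 3 kinds of catalytic subunit. Interferons induce alternative catalytic subunits, coded by Psmb8, Psmb9 and Psmb10, which replace the standard subunits of Psmb5, Psmb6 and Psmb7 and give the immunoproteasome. Psme1 and Psme2 code for the subunits of a cap that opens the barrel. The resulting peptides are pumped into the endoplasmic reticulum by a transporter made of the Tap1 and Tap2 proteins, trimmed there by the aminopeptidase of Erap1, and placed on MHC class I with the help of tapasin, the product of Tapbp. Cytotoxic T cells read these peptides on the cell surface, and tumour cells with little of this machinery are less visible to them.

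Psmb9, Tap1, Psmb8 and Tap2 sit side by side in the MHC region of chromosome 17 (GRCm38, positions from GENCODE M21). Psmb9 (chr17:34181987-34187764, minus strand) and Tap1 (chr17:34187553-34197225, plus strand) start against each other, followed by Psmb8 (chr17:34197721-34201454) and Tap2 (chr17:34203527-34216321). Tapbp lies at chr17:33915899-33929292. Psmb10 is on chromosome 8 (105935735 to 105938444), Psme1 and Psme2 are neighbours on chromosome 14 (55578123 to 55581529 and 55587441 to 55591113), and Erap1 is on chromosome 13 (74639568 to 74693201). RefSeq start windows (GRCm38.p6, 250 bases before to 50 after the start) were matched for 8 of the 9 genes. The window of Tap1 is shown because it is nearly that of Psmb9 read from the other strand; capitals mark the 275 bases present in both windows.
Tap1, chr17:34187306-34187605, plus strand: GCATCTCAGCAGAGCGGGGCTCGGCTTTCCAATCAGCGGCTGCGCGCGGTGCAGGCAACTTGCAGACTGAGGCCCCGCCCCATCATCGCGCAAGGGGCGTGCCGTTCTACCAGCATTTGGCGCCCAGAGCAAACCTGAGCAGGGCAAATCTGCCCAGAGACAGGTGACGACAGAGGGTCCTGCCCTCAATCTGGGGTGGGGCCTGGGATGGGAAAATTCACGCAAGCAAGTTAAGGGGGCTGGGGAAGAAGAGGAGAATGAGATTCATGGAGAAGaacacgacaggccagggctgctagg
The windows were searched on both strands for 3 motifs: the core of the interferon-stimulated response element (GAAA, any 2 bases, GAAA), the gamma-activated site (TTC, any 3 bases, GAA) and a kappaB form (GGGA, any base, TT, any base, CC). Of the 8 matched genes, 2 held the first, 1 the second and 0 the third, against 3.44%, 8.3% and 1.2% of 32851 windows of the same length. The 3 windows with a match are shown, with the match in capitals; no matches overlapped.
Erap1, chr13:74639603-74639902, plus strand: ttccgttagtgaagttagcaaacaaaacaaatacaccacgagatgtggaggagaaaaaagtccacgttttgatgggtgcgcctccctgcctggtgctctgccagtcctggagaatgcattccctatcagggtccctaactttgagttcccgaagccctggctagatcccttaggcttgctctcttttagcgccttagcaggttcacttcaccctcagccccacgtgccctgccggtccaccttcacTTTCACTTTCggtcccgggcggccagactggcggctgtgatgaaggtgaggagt
Psme1, chr14:55578244-55578543, plus strand: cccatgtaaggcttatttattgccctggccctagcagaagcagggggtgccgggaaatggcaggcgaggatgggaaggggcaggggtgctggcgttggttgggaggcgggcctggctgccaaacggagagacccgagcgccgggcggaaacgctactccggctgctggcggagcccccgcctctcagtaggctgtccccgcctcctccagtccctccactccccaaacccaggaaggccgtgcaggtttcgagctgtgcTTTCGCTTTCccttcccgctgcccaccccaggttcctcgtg
Psmb8, chr17:34197945-34198244, plus strand: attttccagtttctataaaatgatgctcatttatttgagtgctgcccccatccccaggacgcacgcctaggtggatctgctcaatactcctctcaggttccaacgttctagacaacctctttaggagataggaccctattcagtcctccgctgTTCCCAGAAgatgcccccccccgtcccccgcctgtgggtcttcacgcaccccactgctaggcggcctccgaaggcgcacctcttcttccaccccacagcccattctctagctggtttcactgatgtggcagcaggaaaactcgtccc
The response element match begins 4 bases before the start of Erap1 and 9 bases after that of Psme1, and the gamma-activated site match begins 97 bases before that of Psmb8. These are letter matches in 1 window per start and show nothing about binding.

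Depth ran from 22763835 to 30303566 counts per library. Duplicates differed beyond counting error (chi-square divided by degrees of freedom 65.3 in RM1536 and 64.9 in RM1). The labels leave unsaid if a and b were grown as separate cultures, so p values measure only the spread between these libraries, which may be technical. Values are CPM, that is counts relative to library size, with TMM scaling unless stated. The libraries expressed the simple epithelial keratin genes Krt8 (966 to 2366 CPM) and Krt18 (275 to 458 CPM), whereas the epithelial genes Epcam and Cdh1 stood at or under 1.33 CPM and the basal keratin gene Krt5 was at 0 in all 6. The 6 stromal fibroblast markers summed to 952 CPM in bone, 1069 in lung, 842 and 1027 in RM1536 and 1401 and 625 in RM1. Among them, Col3a1 ran from 413 CPM in lung to 1377 in RM1 a. Col1a1 stood at 604 CPM in lung, 0.790 in bone and 8.85 to 27.8 in the culture libraries. The 4 endothelial markers summed to at most 1.36 CPM per library. Leukocytes carry the immunoproteasome, so 17 leukocyte markers were checked, 15 of which are in the table. They summed to 26.5 CPM in bone, 25.1 in lung, 11.9 and 4.69 in RM1536 and 11.7 and 45.6 in RM1. The pan-leukocyte gene Ptprc had 0 reads in bone and in lung, 0 and 1 in RM1536, and 2 and 1 in RM1. Most of the sum was Cd68, at 19.7 CPM in bone, 20.2 in lung, 11.2 and 3.59 in RM1536 and 9.58 and 43.5 in RM1; the macrophage gene Lyz2 had 61 reads in bone, 73 in lung and 0 in each culture library. Whether leukocyte RNA was present, and what part it had in the results, was not tested.

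**Figure D1:**
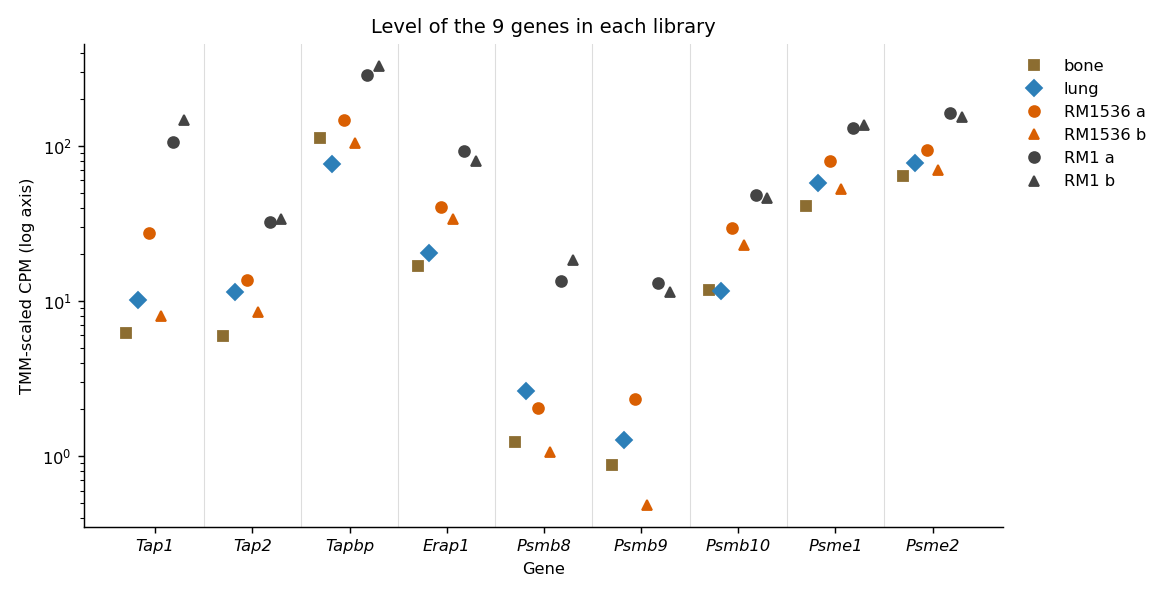
TMM-scaled CPM (log axis) of each of the 9 genes in each library, 1 point per library, with squares for bone, diamonds for lung and circles and triangles for replicates a and b of RM1536 and RM1. For every gene the points of bone, lung and RM1536 lie below both RM1 points, and RM1536 b lies below RM1536 a.

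RM1536 was set against RM1, its parent line. All 9 genes were lower in RM1536 than in RM1, with no overlap between the libraries of the 2 groups, and 5 passed the test: Psmb8, Tap1, Tap2, Tapbp and Erap1. Both RM1536 libraries lay below both RM1 libraries in 26.9% of all 13832 genes tested, and 3.54% of them were called lower. The 9 genes had a median log2 fold change of -1.30, against 0.02 over all genes tested. All 9 had an unadjusted p under 0.05, as had 12.5% of all genes in that direction. Mean levels in RM1536 ran from 9.78% of the RM1 mean for Psmb8 to 55.8% of it for Psmb10. In bulk libraries, fewer cells that express a gene and less RNA per cell cannot be told apart.

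Among the catalytic subunits, Psmb8 had 2.05 and 1.07 CPM in RM1536 against 13.5 and 18.4 CPM in RM1. It fell by 3.36 ± 0.44 on the log2 scale (SE, n = 2 and 2; adjusted p = 0.0175, edgeR quasi-likelihood test with Benjamini-Hochberg adjustment, as for all adjusted p values below). Psmb9 had 2.33 and 0.485 CPM in RM1536 against 13.02 and 11.4 CPM in RM1, the wider spread being in RM1536. These RM1536 levels rest on 58 and 15 reads, with 95% counting intervals of 1.77 to 3.02 and 0.272 to 0.800 CPM, so RM1536 a and b differed beyond counting error. Its log2 fold change was -3.13 ± 0.71 (adjusted p = 0.0624), which did not pass although the size was close to that of Psmb8. Psmb10 had 29.7 and 23.1 CPM in RM1536 against 48.6 and 46.2 CPM in RM1, a smaller difference that did not pass (-0.84 ± 0.23, adjusted p = 0.0948).

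The transporter genes both fell. Tap1 had 27.7 and 8.02 CPM in RM1536 against 106 and 147 CPM in RM1, with a log2 fold change of -2.83 ± 0.58 and an adjusted p (0.04998) just under the threshold of 0.05. Tap2, the partner subunit, had 13.8 and 8.54 CPM in RM1536 against 32.5 and 34.0 CPM in RM1 and fell by 1.58 ± 0.30 (adjusted p = 0.0410). Within RM1536 the level of Tap1 in a was 3.45 times that in b, and that of Tap2 1.61 times, while in RM1 the duplicates of Tap2 were at 32.5 and 34.0 CPM.

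Tapbp, the tapasin gene, had 148 and 104 CPM in RM1536 against 289 and 328 CPM in RM1 and fell by 1.30 ± 0.25 (adjusted p = 0.0416). Erap1, the trimming peptidase gene, had 40.3 and 33.8 CPM in RM1536 against 93.1 and 80.0 CPM in RM1 and fell by 1.22 ± 0.22 (adjusted p = 0.0347). The cap genes were lower without passing the test. Psme1 had 80.4 and 52.8 CPM in RM1536 against 130 and 137 CPM in RM1 (log2 fold change -1.001 ± 0.26, adjusted p = 0.0861), and Psme2 had 93.6 and 69.6 CPM in RM1536 against 163 and 153 CPM in RM1 (-0.95 ± 0.23, 0.0704). RM1536 b was the lower of its pair for 9 of 9 genes, and RM1 b for 4 of 9.

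These calls depended on single libraries and on the settings, and so did the calls over all genes, of which 489 of 13832 were lower in the fit above. Without RM1536 b 0 of the 9 genes were called (113 of 13686 genes called lower), although 9 had an unadjusted p under 0.05 (Psmb8 had an adjusted p of 0.0580). Without RM1536 a 4 were called (288 of 13814), without RM1 a 2 (329 of 13705) and without RM1 b 1, which was Psmb8 (322 of 13680). DESeq2 called 9 (923 of 22081 genes called lower), limma-voom 6, adding Psmb9 at 0.0317 (560 of 13832), and edgeR with no low-count filter 9 (1414 of 22081). The call of Tap1 was lost with total counts in place of TMM (adjusted p = 0.0553), with a filter of 1 CPM in 2 libraries (0.0565) and with only the 4 culture libraries in the fit (0.0506), each leaving 4 called. Over all genes, 442 of 13832, 450 of 11863 and 548 of 12964 were called lower in these fits. Without RM1536 a the log2 fold change was -4.01 for Tap1 and -4.67 for Psmb9, and without RM1536 b it was -2.21 and -2.41.

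The standard subunits that the immunoproteasome subunits replace did not pass in any of the 6 comparisons made. Psmb6 was nearly level, with 197 CPM in bone, 193 in lung, 183 and 185 in RM1536 and 193 and 188 in RM1. The log2 fold change in RM1536 over RM1 was 0.04 ± 0.20 for Psmb5, -0.05 ± 0.19 for Psmb6 and 0.20 ± 0.19 for Psmb7, with adjusted p values of 0.929, 0.908 and 0.602. Levels of different genes were compared per kilobase of annotated exon, joined over all annotated transcripts of the gene. On that scale Psmb8 stood at 0.436% of Psmb5 in bone, 0.832% in lung, 0.580% and 0.358% in RM1536 and 4.17% and 5.95% in RM1. Psmb9 stood at 0.228% of Psmb6 in bone, 0.335% in lung, 0.652% and 0.134% in RM1536 and 3.45% and 3.11% in RM1. Psmb10 was closer to its counterpart, at 20.1% of Psmb7 in bone, 24.4% in lung, 50.6% and 36.9% in RM1536 and 87.8% and 91.0% in RM1. The joined lengths were 3.381 kb for Psmb8 against 0.899 kb for Psmb5, and 1.705 kb for Psmb10 against 3.421 kb for Psmb7. The size of each ratio depends on them, while differences between libraries within a pair do not. In plain CPM, RM1 a had 13.5 for Psmb8 against 86.3 for Psmb5, and 48.6 for Psmb10 against 111 for Psmb7. For each of the 3 pairs all RM1 values lay above all others; an exact permutation test of RM1536 against RM1 gives p = 0.333, the smallest that 2 against 2 libraries allow.

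**Figure D2:**
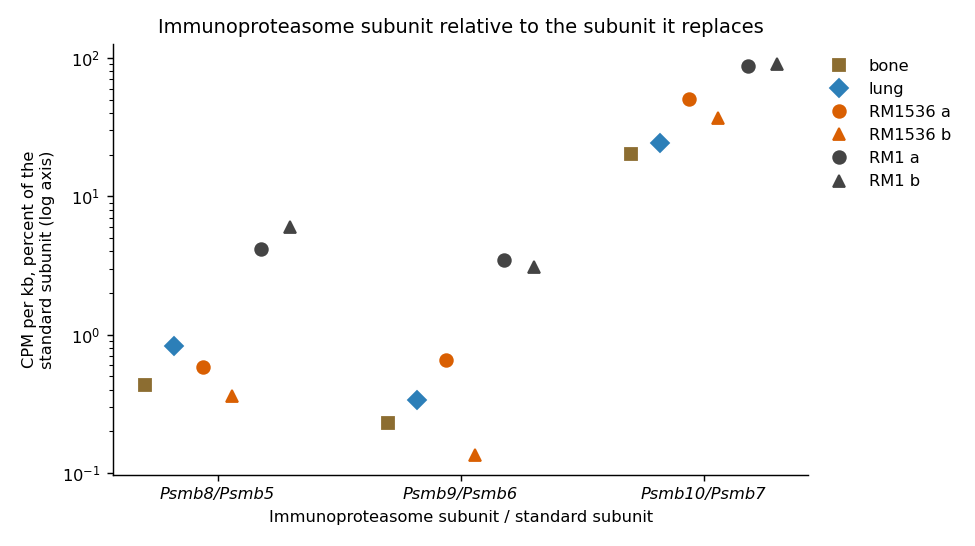
CPM per kilobase of exon of each immunoproteasome subunit gene as a percentage of that of the standard subunit gene it replaces (log axis), 1 point per library. Both RM1 points are the highest for each pair, at 4.17% and 5.95% for Psmb8/Psmb5, and RM1536 b is the lowest for Psmb8/Psmb5 and Psmb9/Psmb6.

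Per kilobase, the most abundant of the 9 in RM1 were Psme2 (89.5 ± 4.06 CPM per kb, SD, n = 2), Tapbp (85.1 ± 7.65) and Psme1 (60.3 ± 2.28), and Psme2 and Tapbp did not differ beyond their spread. Psmb10 (27.8 ± 0.982) and Tap1 (23.1 ± 5.22) came next and differed by less than the SD of Tap1, followed by Erap1 (11.9 ± 1.27) and Tap2 (8.79 ± 0.284). Psmb8 (4.72 ± 1.01) and Psmb9 (3.34 ± 0.314) were the lowest. This order rests on the joined exon lengths. In plain CPM Psmb8 and Psmb9 were also the lowest in RM1, at means of 15.9 and 12.2, with Tap2 at 33.3. In RM1536, Psme2 (46.3 ± 9.62 CPM per kb, SD, n = 2) was still the highest and Psmb9 (0.385 ± 0.357) and Psmb8 (0.461 ± 0.206) the lowest, the last 2 overlapping.

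The rest of the pathway was read from lists of related genes. Of 14 standard subunits of the proteasome barrel, 0 were called and 0 had an unadjusted p under 0.05 by edgeR, and their median log2 fold change in RM1536 over RM1 was 0.16. Of 18 genes of the regulatory cap that unfolds ubiquitinated proteins, 0 were called and 1, Psmd8 (-0.75), had an unadjusted p under 0.05 (median 0.15). Of 8 other activators, inhibitors and assembly factors, 0 were called and 1, Psmg2 (0.98), had an unadjusted p under 0.05 (median 0.30). Of 5 other loading complex genes, 0 were called (median 0.19): B2m, the light chain of MHC class I, had the lowest value (-1.31 ± 0.33, adjusted p = 0.0841), while Calr, Canx and Pdia3, general folding factors of the endoplasmic reticulum, lay above 0. Of 6 other peptidases 0 were called (median -0.13).

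Upstream regulators were the other list with called genes. Of 12, 3 were called lower in RM1536 and 0 higher, with a median of -0.77. Nlrc5, the activator of MHC class I genes, had 2.28 CPM in bone, 9.63 in lung, 5.11 and 2.01 in RM1536 and 43.5 and 57.9 in RM1, and fell by 3.84 ± 0.49 in RM1536 (adjusted p = 0.0165). Irf8, a transcription factor of the interferon regulatory family, fell by 3.29 ± 0.33 (0.0101). Irf1, a factor known to act on the shared Tap1 and Psmb9 promoter, did not pass in that comparison, with 50.4 and 36.2 CPM in RM1536 against 46.3 and 44.6 CPM in RM1 (log2 fold change -0.07 ± 0.24, adjusted p = 0.897). In the recovered cells Irf1 stood lower, at 24.1 CPM in bone and 22.5 in lung, each with no replicate. Its log2 fold change over RM1536 was -0.85 ± 0.30 in bone and -0.95 ± 0.30 in lung, and it did not pass at either site.

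**Figure D3:**
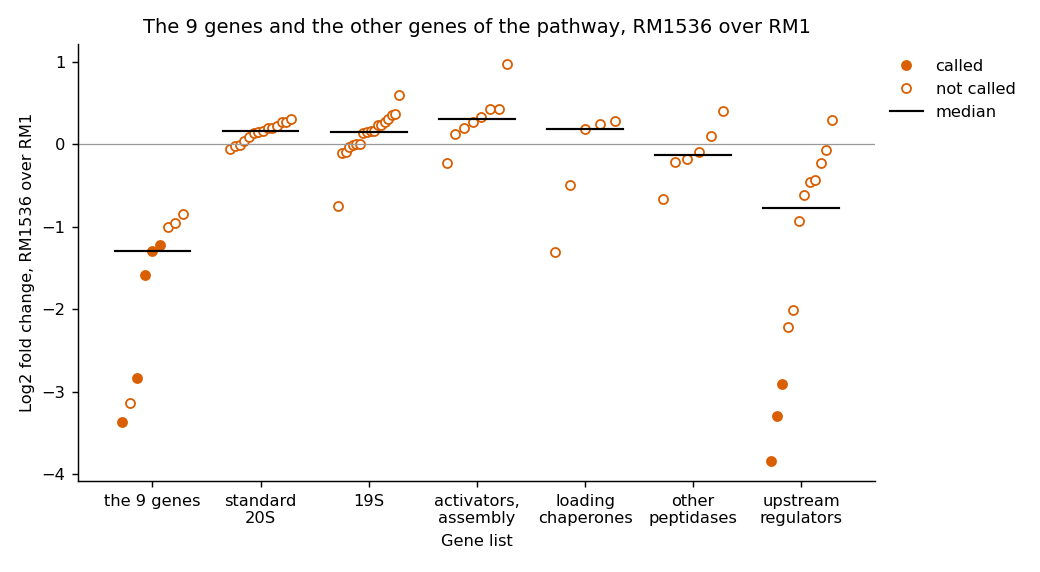
Log2 fold change of RM1536 over RM1 for the 9 genes and the genes of 6 related lists, 1 point per gene, filled where called, with a bar at the list's median. The 9 genes all lie under 0 with a median of -1.30, and the standard barrel subunits lie between -0.05 and 0.31.

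The next comparisons set the recovered cells against RM1. They share the RM1 libraries with the comparison above, so the values are given side by side and are not separate support. All 9 genes were lower in bone and in lung than in both RM1 libraries; all 4 libraries of labelled cells lay below both RM1 libraries in 18.3% of genes tested. In bone against RM1, 5 genes were called lower, against 2.54% of all genes, with a median of -2.37 on the log2 scale (0.01 over all genes). An unadjusted p under 0.05 was found for 9 of the 9, against 11.3% of all genes in that direction. Erap1 had 16.7 CPM in bone and fell by 2.37 ± 0.30 (n = 1 and 2, adjusted p = 0.0190). Psmb10, which had not passed in RM1536 against RM1, had 11.8 CPM in bone and fell by 2.00 ± 0.31 (0.0286). Tap1, at 6.23 CPM in bone, fell by 4.34 ± 0.85 (0.0494), and Tap2, at 5.97 CPM, had a log2 fold change of -2.48 ± 0.41 (0.0320). Psmb8 had 1.23 CPM in bone and fell by 3.69 ± 0.60 (0.0318).

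In lung against RM1, 3 genes were called lower, against 1.58% of all genes, with a median of -2.02 (-0.03 over all genes), and 9 had an unadjusted p under 0.05, against 11.9% of all genes in that direction. They were Erap1, at 20.4 CPM in lung (-2.08 ± 0.29, adjusted p = 0.0253), Psmb10, at 11.6 CPM (-2.02 ± 0.31, 0.0307), and Tapbp, at 76.6 CPM (-2.01 ± 0.33, 0.0362). In lung the transporter genes stood at 10.2 CPM for Tap1 (-3.63 ± 0.82, 0.0740) and 11.4 CPM for Tap2 (-1.55 ± 0.38, 0.0902) and did not pass. The cap genes did not pass at either site: Psme1 had 41.2 CPM in bone and 57.7 in lung, and Psme2 64.0 in bone and 77.7 in lung. Psmb9, at 0.878 CPM in bone (20 reads) and 1.26 in lung (32 reads), did not pass either (adjusted p = 0.0983 and 0.127).

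Relative to the RM1 mean, Psmb10 stood at 24.9% in bone, 24.6% in lung and 55.8% in RM1536, and Erap1 at 19.3% in bone, 23.6% in lung and 42.8% in RM1536. Psmb8 and Tap2 did not have both recovered libraries below the RM1536 mean. Psmb8 stood at 7.71% in bone, 16.6% in lung and 9.78% in RM1536. Tap2 stood at 18.0% in bone, 34.2% in lung and 33.5% in RM1536. The remaining genes had both below that mean. Tapbp stood at 36.3% in bone, 24.8% in lung and 40.7% in RM1536, and Psme1 at 30.9%, 43.3% and 49.97%. In the same order, Psme2 stood at 40.5%, 49.2% and 51.7%, and Psmb9 at 7.19%, 10.3% and 11.5%. However, RM1536 b lay below bone for Tapbp, below lung for Psme1 and Psme2, and below both bone and lung for Psmb9. Tap1 stood at 4.93% in bone, 8.09% in lung and 14.1% in RM1536, a mean that rests on RM1536 a (27.7 CPM), since RM1536 b (8.02 CPM) lay below lung (10.2 CPM). The count called was 3 in bone and 0 in lung without RM1 a (263 and 125 of 13705 genes called lower). It was higher than in the fit above at both sites without RM1536 a or without RM1536 b, and unchanged without RM1 b. All 9 log2 fold changes over RM1 stayed negative at both sites in these fits. The Tap1 call in bone was lost with total counts (adjusted p = 0.0524) and with the filter of 1 CPM in 2 libraries (0.0560). DESeq2 called 9 at both sites, with 858 of 22081 genes called lower in bone and 748 in lung. So did edgeR without a low-count filter, with 1257 in bone and 1194 in lung, against 352 and 219 of 13832 genes in the fit above. These p values assume that the lone bone and lung libraries vary like the culture duplicates.

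**Figure D4:**
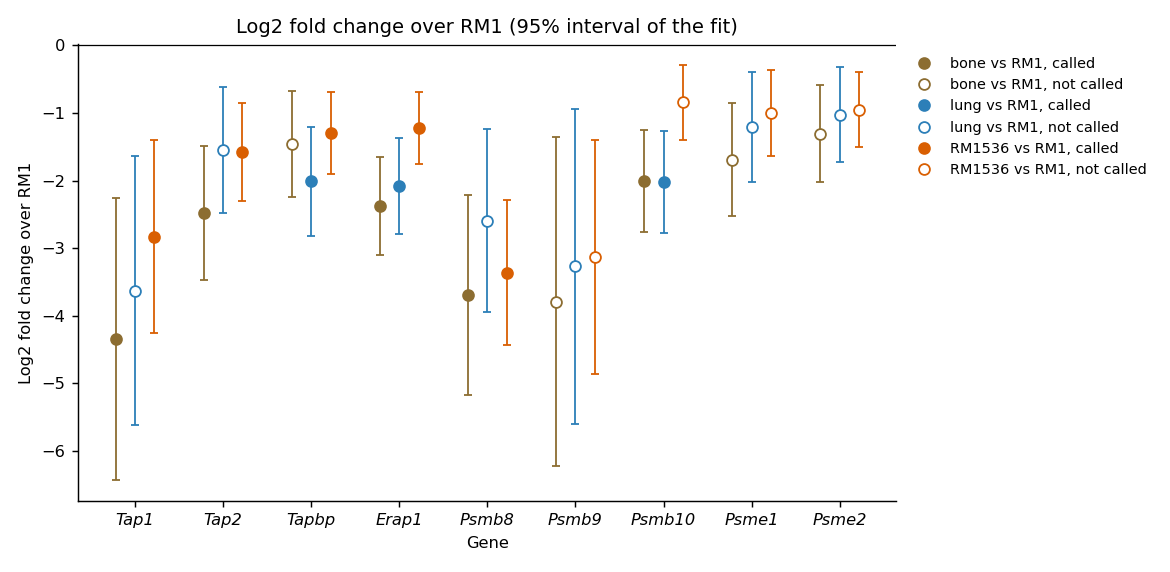
Log2 fold change over RM1 of bone, lung and RM1536 for each of the 9 genes, with the 95% interval of the fit; filled points were called. All points lie under 0, and Psmb10 is called in bone and lung and not in RM1536.

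Bone and lung were then set against the injected line. None of the 9 genes was called in bone against RM1536 by edgeR, where 0.00723% of genes were called lower, and 2, Psmb10 and Erap1, had an unadjusted p under 0.05, against 4.74% of all genes in that direction. DESeq2 called 1 (Erap1, adjusted p = 0.0320) and 204 of 22081 genes lower, limma-voom 0 of the 9 and 0 in all, and edgeR with no filter on low counts 3 of the 9 and 464 of 22081 genes lower. In lung against RM1536, 0 were called by edgeR, where 0% of all genes were called lower. Psmb10 and Erap1 again had an unadjusted p under 0.05, against 7.29% of all genes in that direction. There DESeq2 called 0 of the 9 (182 of 22081 genes lower), limma-voom 0, and edgeR with no low-count filter 1, Psmb10 (598 of 22081). Psmb10 and Erap1 were the 2 genes with both recovered libraries below both RM1536 libraries, an arrangement found in 21.5% of genes tested.

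Psmb10 stood at 11.8 CPM in bone and 11.6 in lung against 29.7 and 23.1 CPM in RM1536. Its log2 fold change was -1.16 ± 0.30 in bone (adjusted p = 0.256; 95% interval of the fit -1.88 to -0.44) and -1.18 ± 0.30 in lung (0.297; -1.90 to -0.46). Erap1 stood at 16.7 CPM in bone and 20.4 in lung against 40.3 and 33.8 CPM in RM1536, with a log2 fold change of -1.15 ± 0.28 in bone (0.230; -1.82 to -0.47) and -0.86 ± 0.27 in lung (0.323; -1.53 to -0.19). Neither gene passed at either site. The other 7 genes had intervals that included 0 at both sites. For Tap1 the interval ran from -3.32 to 0.29 in bone and from -2.52 to 0.92 in lung, so a further loss or a gain within these bounds was not detectable with these libraries. Psmb8 had the highest fold change in lung, at 2.64 CPM (67 reads) against 2.05 and 1.07 CPM in RM1536 (log2 fold change 0.77 ± 0.50, adjusted p = 0.513).

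Bone against lung gave 0 called genes of the 9 by edgeR (0.00723% of all genes were called lower), 0 with an unadjusted p under 0.05 (4.68% of all genes in that direction), and 0 by DESeq2 and limma-voom. Of the 9, 7 were lower in bone than in lung, as were 6558 of all 13832 genes tested. The 2 exceptions were Tapbp, at 112 CPM in bone against 76.6 CPM in lung (log2 fold change 0.55, 95% interval -0.29 to 1.39), and Psmb10, at 11.8 against 11.6 CPM. The largest difference was in Psmb8, at 1.23 CPM in bone against 2.64 CPM in lung (-1.10, interval -2.60 to 0.39).

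**Figure D5:**
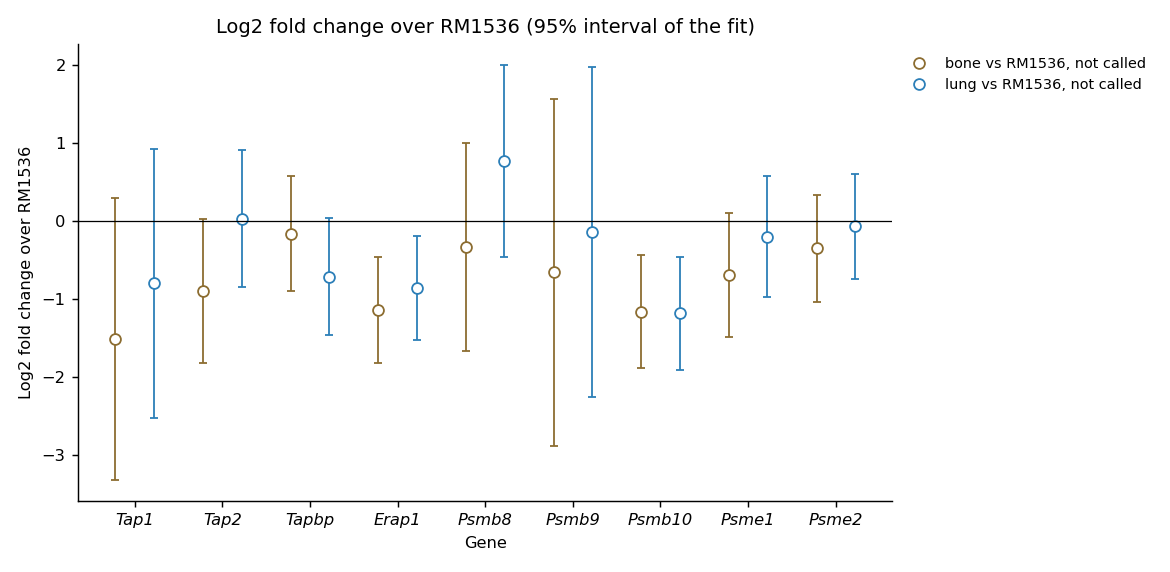
Log2 fold change over RM1536 of bone and lung for each of the 9 genes, with the 95% interval of the fit; no point was called. The intervals of Psmb10 and Erap1 lie under 0 at both sites, and those of the other 7 genes include 0.

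The 9 genes shared the step between RM1 and the other 4 libraries, while the order within those 4 differed between genes. Lung was the lowest for Tapbp and bone for Tap2, beyond counting error. Lung was also above RM1536 a for Psmb8 and below bone for Psmb10, but with overlapping counting intervals. The correlation of a gene's log2 CPM with the mean standardised profile of the other 8 ran from 0.900 for Psmb10 to 0.994 for Tap1 over the 6 libraries, a description in which that step weighs most. Among 9871 other genes with a mean of at least 5 CPM, 222 had a correlation above 0.95 with the mean profile of the 9. Among the 10 highest, with r from 0.994 to 0.9997, were Ddx58, Znfx1, Parp14, Oas3, Dtx3l, Pxdc1, Mitd1, Micu2 and Gm6548. Ddx58, which codes for a sensor of viral RNA, had 16.2 CPM in bone, 26.2 in lung, 72.1 and 25.7 in RM1536 and 360 and 415 in RM1. Znfx1 had 28.2 CPM in bone, 35.3 in lung, 54.1 and 36.3 in RM1536 and 128 and 126 in RM1. As in Tap1, RM1536 a lay above the other 3 libraries of labelled cells for both.

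Reads of some of the 9 may be shared with overlapping genes, since the strand setting of the counting is not given in the sources used here. Exons of Tap1 and Psmb9 overlap by 212 bases on opposite strands (3.87% and 5.79% of their exon length). The overlap with genes on the opposite strand was 11.5% of exon length for Erap1 (Cast), 24.9% for Tapbp (Gm19412), 14.7% for Psmb8 (Gm20496) and at most 14.1% for Tap2 (Gm15821), and it was 11.8% for the standard subunit gene Psmb7 (Nek6). On the same strand, overlap was 4.11% of exon length for Tapbp (Zbtb22) and 12.1% for the standard subunit gene Psmb5 (Mir686). Those overlaps do not depend on the strand setting.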

How the data were processed

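The 9 genes and the related lists were chosen with earlier results of these data known. The authors deposited raw counts per gene for 6 libraries (NEBNext Ultra, HiSeq2500, per the labels' protocols). The submitters' processing notes name GRCm38, TopHat2 2.1.10, HTSeq and edgeR, with no role for each, and the strand setting and gene models of the counting are items not given in the sources used here. An entry with no name (up to 0.00830% of a library) was left out. From these, edgeR 4.0.16 (R 4.3.3) gave TMM scaling factors, a low-count filter (filterByExpr, grouped) and a quasi-likelihood fit of 4 groups over all 6 libraries, which tested 13832 genes. P values were Benjamini-Hochberg adjusted over these, with a call at 0.05. The fit had 2 residual degrees of freedom, from the RM1536 and RM1 pairs, and a biological coefficient of variation of 0.269. SE is the log2 fold change over the square root of F. Alternatives were DESeq2 1.42.0, limma-voom 3.58.1, other scaling and filters, each culture library left out, and blocks. The 22081 genes given for DESeq2 are all genes with reads. They include any that its own low-count filter left without an adjusted p and that could not be called. Counting intervals are exact 95% Poisson intervals and cover counting error only. Named outside the 9 were Psmb5, Psmb6 and Psmb7, list genes called in RM1536 against RM1, and the 10 genes most like the 9 over the libraries, except items not reported here; Irf1, B2m, Calr, Canx, Pdia3, Psmd8 and Psmg2 were named after their values were seen.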

Additional observations from a re-analysis of the deposited data

How the results depend on the processing

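Every log2 fold change of the 9 genes over RM1, in bone, lung and RM1536, stayed negative under all alternatives run. The number called in RM1536 against RM1 (5) was 9 with DESeq2 and with no low-count filter, 4 with total counts, with a filter of 1 CPM in 2 libraries and with only the 4 culture libraries, and ran from 0 to 4 with each culture library left out. It was 5 in bone against RM1, with 9 under DESeq2, 9 with no filter, 4 with total counts or the 1 CPM filter and 3 to 8 with a library left out. In lung against RM1 it was 3, with 9 under DESeq2, 9 with no filter and 0 to 6 with a library left out. In bone against RM1536 it was 0, with 1 under DESeq2, 3 with no filter and 0 with any library left out; in lung against RM1536 it was 0, with 1 with no filter and 0 with any library left out; bone against lung gave 0 throughout. The cause of these moves was not tested. With total counts and no scaling factors the median of all genes shifted to -0.15 in lung against RM1536, -0.13 in lung against RM1 and 0.11 in bone against lung.

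Signs turned only among values that were not called. In lung against RM1536, Tap2 was -0.088 with total counts (0.03 with TMM) and Psmb9 was 0.31 with limma-voom. With each culture library left out, the range in lung against RM1536 was -1.41 to 0.38 for Tap1, -0.25 to 0.44 for Tap2, -0.86 to 1.40 for Psmb9, -0.46 to 0.16 for Psme1 and -0.25 to 0.19 for Psme2. In bone against RM1536 it was -0.40 to 0.12 for Tapbp, -0.74 to 0.21 for Psmb8 and -1.40 to 0.86 for Psmb9. In each of these the positive end was without RM1536 a and the negative end without RM1536 b. In bone against lung, Psmb10 (0.02) was -0.0074 with DESeq2 size factors, -0.010 with DESeq2, -0.032 with no filter and -0.0016 to 0.021 with a culture library left out.

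The letters a and b are shared by RM1536 and RM1 but are not stated to pair libraries, and the a minus b deviations of the 2 groups had a correlation of -0.37 over 13832 genes. With the letter as a replicate block in a fit of the 4 culture libraries, 1 of the 9 was called (295 genes in all), against 4 (836) in the same libraries without it. A crossed pairing, chosen after seeing that correlation, called 9 of the 9 (3165 genes in all). Psmb8 and Psmb9 had at most 67 reads in bone, lung and RM1536, which limits the precision of their changes among these libraries.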
